A study of Rattus norvegicus with 10 samples.

Results

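The cytosolic ribosomal protein genes of rat liver were described across 10 samples, 5 from Eisai hyperbilirubinemic rats (EHBR) and 5 from Sprague-Dawley (SD) rats, all males aged 5 weeks and numbered 1 to 5 within each strain. EHBR descend from SD rats and lack Mrp2, the canalicular efflux pump encoded by Abcc2, so their bile excretion of conjugated bilirubin is impaired. The labels name no treatment, and breeding, litters and days are not stated for any number. Loss of Mrp2 and any other difference between the strains cannot be told apart, and p-values measure only the spread between these samples.

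The genes were chosen by name: protein-coding rows whose symbol is Rpl or Rps followed directly by a digit, leaving out the Rps6k kinases. This gave 94 of the 32883 rows, with 84 symbols between them. Of these, 89 reached at least 1 TPM (a level that is corrected for transcript length and sums to the same total in every sample) in at least 5 samples, among 11083 kept genes in all. They comprised 38 rows with small-subunit (Rps) and 51 with large-subunit (Rpl) symbols. Against a list of 73 symbols of the standard ribosomal proteins with such names, 69 had a kept row; Rps14, Rps19, Rps26 and Rpl22 had no row under that symbol. Rps19bp1 matched the name pattern but encodes a protein that binds Rps19, not a subunit of the ribosome. The 5 rows below the limit were Rpl3l, Rpl39l, Rpl30l1, 1 copy of Rpl21 on chromosome 3, which was at 0 in every sample and 1 of the copies of Rpl35al1 on chromosome 12. The copy of Rpl35al1 that was kept reached the limit in exactly 5 samples, with 0 to 2.56 TPM, and the copy that was not was at 0 in samples 1 to 3 of both strains, at 6.73 and 22.5 TPM in SD 4 and 5 and at 53.7 and 0.34 TPM in EHBR 4 and 5.

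Cytosolic ribosomes are built in the nucleolus from ribosomal RNA and one copy of nearly every ribosomal protein, with Rps proteins in the small subunit that reads the mRNA and Rpl proteins in the large subunit that joins amino acids. Many of the mRNAs begin with a run of pyrimidines, the terminal oligopyrimidine (TOP) tract, through which mTOR signalling and the RNA-binding protein Larp1 control their translation and stability together. In the liver, which exports large amounts of plasma protein, they are among the abundant mRNAs. The genome also holds many processed copies without introns, so that short reads from one protein's mRNA can be shared among several annotated rows.

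The start sites below are shown because the TOP tract is the sequence feature that this gene class is known for. Each line gives bases -10 to +20 around the start annotated by RefSeq in the build GRCr8, 5′ to 3′ on the gene's strand, with the run of pyrimidines that begins at base +1 in capitals; a line without capitals starts with a purine. The first 9 are genes with well-studied roles, and Rpl12 and Rpl17 were added after their values were seen.
Rps3: ttcagcggcgCgcggcagcaagatggcggt
Rps6: ctcctaggcggtcggctgtgtcaagatgaa
Rps27a: agggcggttcCTTCgacccggagactcggt
Rpl3: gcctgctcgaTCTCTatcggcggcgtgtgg
Rpl5: ctttcccacgTCgcttgcgtcctggaggtg
Rpl10: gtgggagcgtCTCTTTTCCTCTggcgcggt
Rpl11: cttgaagcttgtttggtgctggggagcatc
Rpl13a: tcctttcctaggcggctgccgaagatggcg
Rpl23: cttcctttctgactctttccggacgctcaa
Rpl12: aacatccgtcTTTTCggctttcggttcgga
Rpl17: ttcgcgcttcCTCTTCCTgttagcggccag

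These windows lie at chr1:163195757-163195786 (Rps3, minus strand), chr5:106420521-106420550 (Rps6, minus), chr14:107488922-107488951 (Rps27a, minus), chr7:113507971-113508000 (Rpl3, minus), chr14:1995206-1995235 (Rpl5, minus), chrX:157205840-157205869 (Rpl10, plus), chr5:153560783-153560812 (Rpl11, minus), chr1:104748894-104748923 (Rpl13a, minus), chr10:83272165-83272194 (Rpl23, minus), chr3:36661930-36661959 (Rpl12, plus) and chr18:70856266-70856295 (Rpl17, plus). Start windows were found for 63 of the 81 symbols with a kept row, and 56 lay on the chromosome of such a row. A strict TOP start, with C at base +1 and only C or T through base +5, was present in 19 of the 63 (30.2%), against 2.63% of the 27457 genes in the RefSeq table. A run of at least 6 pyrimidines touching bases -5 to +10 was present in 43 (68.3%), against 23.0% of all genes. In the lines above, Rpl10 and Rpl17 have the strict start, while Rpl12 begins with T and Rpl23 has its pyrimidines just before the annotated base. In the 250 bases before the start, on either strand, CCGGAA (an ETS factor motif) was present in 33.3% of the 63 against 13.4% of all genes, and GGGCGG (the SP1 motif) in 55.6% against 32.4%. The letters TATAAA were present in 11.1% against 13.1%. ATGGCGG, a YY1 core, was present somewhere in the 300 bases of 22.2%, against 5.22% of all genes; it ends in the same letters as GGGCGG, but the 2 cannot match at one place on one strand. These motifs were also frequent in other lists, in places more so: CCGGAA was present in 41.7% of mitochondrial ribosomal protein windows, 50% of proteasome and 54.3% of ribosome biogenesis windows, GGGCGG in 46.7%, 69.2% and 68.6%, and ATGGCGG in 23.3%, 23.1% and 17.1%. Strict TOP starts were present in 3.33%, 0% and 5.71% of those lists. Matches are descriptions of the annotated windows only.

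The mean level of the rows ran from 1.13 to 2047 TPM, as the ranked plot shows on a log axis. Rpl41, the shortest of the ribosomal proteins, averaged 2047 TPM over all samples, Rpl36 1006 TPM and Rpl10 944 TPM, whereas Rps6, the subunit phosphorylated by S6 kinases, averaged 2.68 TPM under its own symbol, Rps10l1 1.55 TPM and the kept copy of Rpl35al1 1.13 TPM. Behind the TPM of the Rps6 row stood 9 to 43 reads per sample, and behind those of the Rpl41 row 6585 to 21665. Behind the upper-quartile FPKM of the Rps6 row stood only 3 to 18 reads. Of the 89 rows, 62 averaged at least 100 TPM and 17 under 30 TPM. Rows without introns, whose transcript length equals their genomic span, were 19, with a median level of 16.8 TPM against 405 TPM for the 70 with introns. Only 2 of the rows without introns reached 100 TPM. Several standard names sat on scarce rows while another row carried more reads: Rps29 averaged 6.17 TPM under its own symbol on chromosome 13, and a row that RefSeq names Rps29, LOC108352650 on chromosome 6, averaged 1156 TPM. Likewise Rpl9 averaged 3.31 TPM and LOC100360449, also Rpl9 in RefSeq, lay between 135.5 and 288 TPM. The row for the missing name Rps14 was LOC100911847, a copy by its RefSeq name, at 529 to 1053 TPM.

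**Figure D1:**
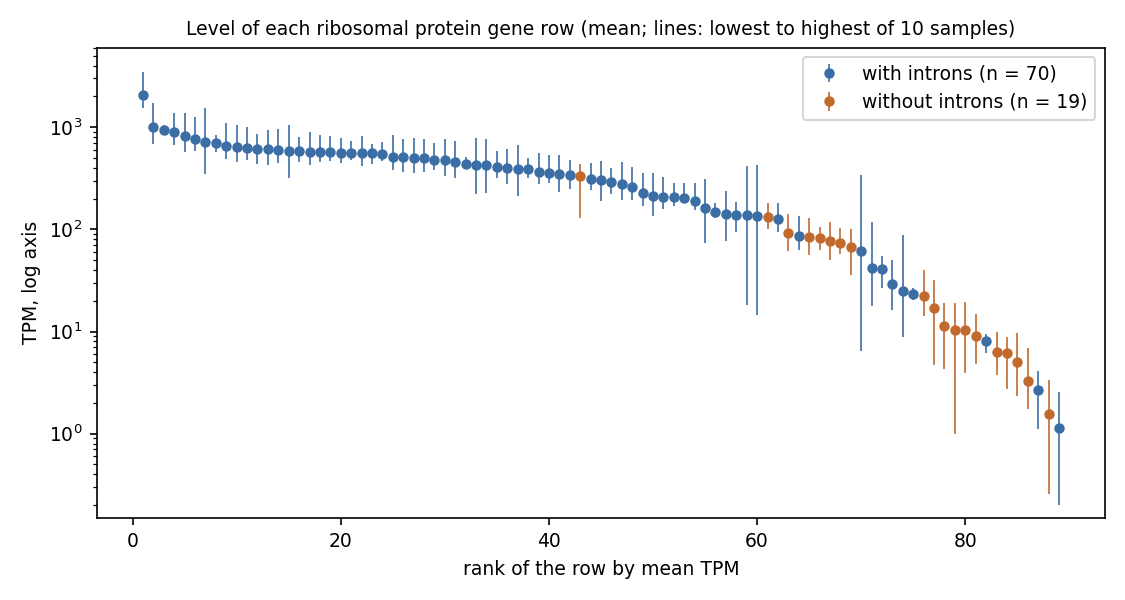
Mean TPM of each of the 89 kept rows on a log axis, ranked from the most abundant, with lines from the lowest to the highest of the 10 samples (values under 0.2 TPM drawn at 0.2). Rows without introns, in orange, lie mostly at the low end, with a median of 16.8 TPM against 405 TPM for rows with introns, in blue.

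Ribosomal protein mRNAs were more abundant in the samples numbered 4 and 5 than in those numbered 1 to 3, in both strains. The 94 rows took 2.63%, 2.53% and 2.34% of TPM in SD samples 1 to 3 and 4.05% and 4.50% in SD samples 4 and 5, a ratio of means of 1.71. In EHBR they took 2.51%, 2.39% and 2.51% and then 3.48% and 3.16%, a ratio of 1.34. No sample of one block overlapped the other in either strain. The division into these blocks was first seen in these data, with these genes among those that showed it, so it is described here with no test. What distinguishes the blocks is not given in the labels.

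Among the 89 kept rows, 58 had all 4 samples numbered 4 or 5 above all 6 numbered 1 to 3, where 3.45% of all kept genes did so. None had all 4 below, where 14% of all kept genes did so. Within SD alone 72 rows stood above in this way, against 11.2% of all kept genes, and within EHBR alone 67, against 12%. The mean TPM was more than 2-fold higher in SD 4 and 5 for 16 rows, against 1.83% of all kept genes. The median row differed by 0.59 on the scale of log2(TPM + 1), where each row's value is the mean of its differences in the 2 strains, while the median of all kept genes was -0.22. The median was 0.73 within SD and 0.41 within EHBR, where that of all kept genes was -0.32 and -0.12. A difference on this scale understates the change of rows with few TPM. Small-subunit rows had a median of 0.59 and large-subunit rows 0.53. Ribosomal protein mRNAs are short, with a median length of 636 bases against 2158 for all kept genes. The 1561 other kept genes under 1000 bases had a median of 0.01, with 131 of them (8.39%) above in the same sense. They were not matched for level, with a median of 12.4 TPM against 303 TPM for the 89 rows. The 9433 other kept genes of 1000 bases or more had a median of -0.24, with 193 (2.05%) above. Rows at 100 TPM or more stood above in 53 of 62 cases, those under 100 TPM in 5 of 27 and those without introns in 5 of 19. The median was 0.59 for the 15 symbols with the strict start and 0.59 for the 41 without, among windows on the chromosome of the row. Of these, 13 of the 15 and 27 of the 41 stood above. Those without include genes such as Rpl23, with pyrimidines just before the annotated base, and the part of the tract was not tested.

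**Figure D2:**
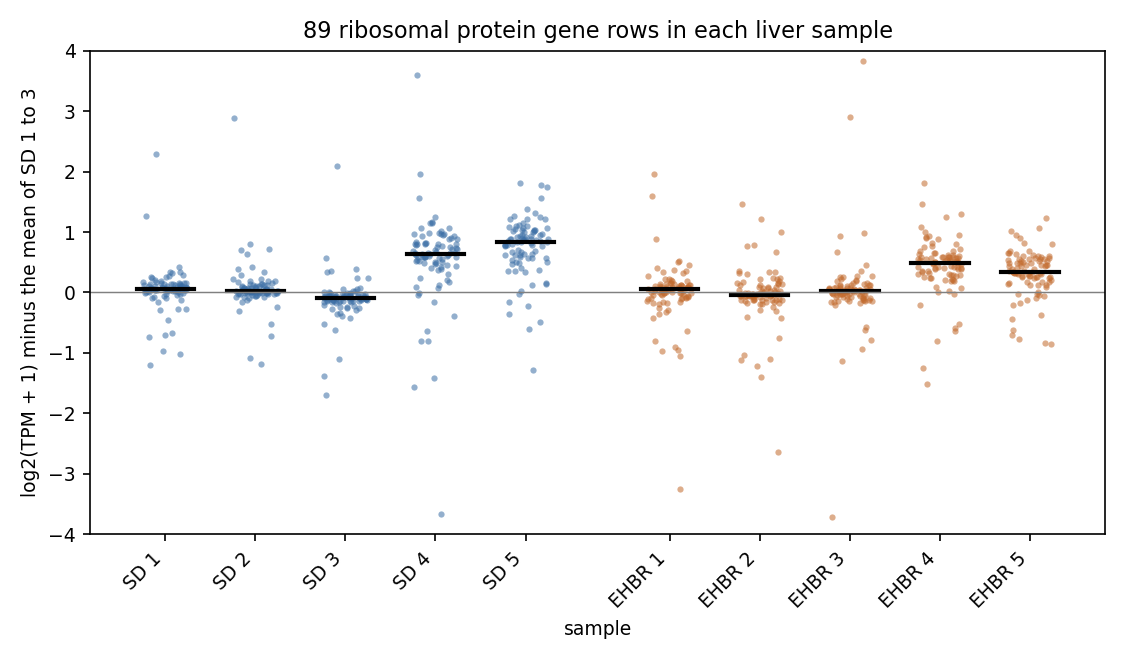
Each point is one of the 89 kept rows in one sample, as log2(TPM + 1) minus that row's mean over SD samples 1 to 3, with the median of the rows as a black bar. The medians lay between -0.09 and 0.06 in samples 1 to 3 of both strains, at 0.64 and 0.84 in SD samples 4 and 5 and at 0.49 and 0.34 in EHBR samples 4 and 5.

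Among small-subunit genes, Rps3, which lies at the mRNA entry channel, held 415, 399 and 380 TPM in SD samples 1 to 3 and 661 and 694 TPM in SD 4 and 5. In EHBR it held 403, 391 and 408 TPM and then 599 and 480 TPM. The blocks did not overlap, and the difference was 0.77 in SD and 0.42 in EHBR. Rps12 had one of the largest differences, at 1.02: it held 275, 312 and 222 TPM, then 597 and 792 TPM in SD, and 353, 343 and 318 TPM, then 538 and 544 TPM in EHBR. Rps21, a small protein of the same subunit, differed by 0.93, from 482, 441 and 320 TPM to 852 and 1061 TPM in SD, and from 444, 406 and 495 TPM to 762 and 645 TPM in EHBR. All samples numbered 4 or 5 exceeded all others for Rps12 and Rps21. Rps27, a zinc-finger subunit protein, differed by 0.76, with 388 to 426 TPM in SD 1 to 3 against 805 and 844 TPM, and 378 to 407 TPM in EHBR 1 to 3 against 574 and 544 TPM. Its paralog Rps27l, a p53 target, differed by 0.22, with 137.3 to 142.3 TPM against 149.9 and 157 TPM in SD and 129 to 138 TPM against 180 and 153 TPM in EHBR.

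Among large-subunit genes, Rpl3, near the peptidyl transferase centre, held 115, 106 and 94.1 TPM and then 157 and 181 TPM in SD, and 133, 129 and 127 TPM and then 185 and 155 TPM in EHBR. Rpl5 and Rpl11, which with 5S RNA can bind and inhibit Mdm2, differed by 0.41 and 0.73. Rpl5 held 318 to 362 TPM in SD 1 to 3 against 503 and 483 TPM, and 336 to 369 TPM in EHBR 1 to 3 against 422 and 423 TPM. Rpl11 held 63.4 to 72.2 TPM against 127 and 136 TPM in SD, and 65.6 to 70.2 TPM against 97.9 and 94.9 TPM in EHBR. Rpl23, another Mdm2 binder, held 416 to 472 TPM against 828 and 828 TPM in SD and 432 to 468 TPM against 631 and 577 TPM in EHBR. In all of these the blocks were separate in both strains. Rpl10, which completes the large subunit late in its assembly, was nearly flat, at 929, 995, 973, 1050 and 984 TPM in SD and 898, 892, 884, 984 and 854 TPM in EHBR. Its difference of 0.06 set it apart from Rpl41, which differed by 0.63 with 1601 to 1929 TPM against 2952 and 3452 TPM in SD and 1551 to 1555 TPM against 2038 and 2083 TPM in EHBR.

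Among paralogs, Rpl22l1, a relative of Rpl22 that can replace it, had the second largest difference, at 1.24. It held 111, 74.3 and 96.0 TPM and then 274 and 314 TPM in SD, and 131, 108 and 106 TPM and then 230 and 179 TPM in EHBR. Rpl36a differed by 0.95, at 134 to 170 TPM against 326 and 360 TPM in SD and 148 to 161 TPM against 288 and 240 TPM in EHBR. Rpl36al, its paralog without introns, differed by 0.91 at lower levels of 36.1 to 58.1 TPM in samples 1 to 3 of both strains. Rpl7l1, a nucleolar relative of Rpl7, went the other way, with 42.1, 41.1 and 44.9 TPM and then 26.9 and 27.8 TPM in SD, and with overlapping blocks in EHBR. Rps4y2, Rpl10l and Rps10l1 stayed between 0.26 and 31.8 TPM, with overlapping blocks in both strains. In all, 8 of the 89 rows had a difference under 0.

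**Figure D3:**
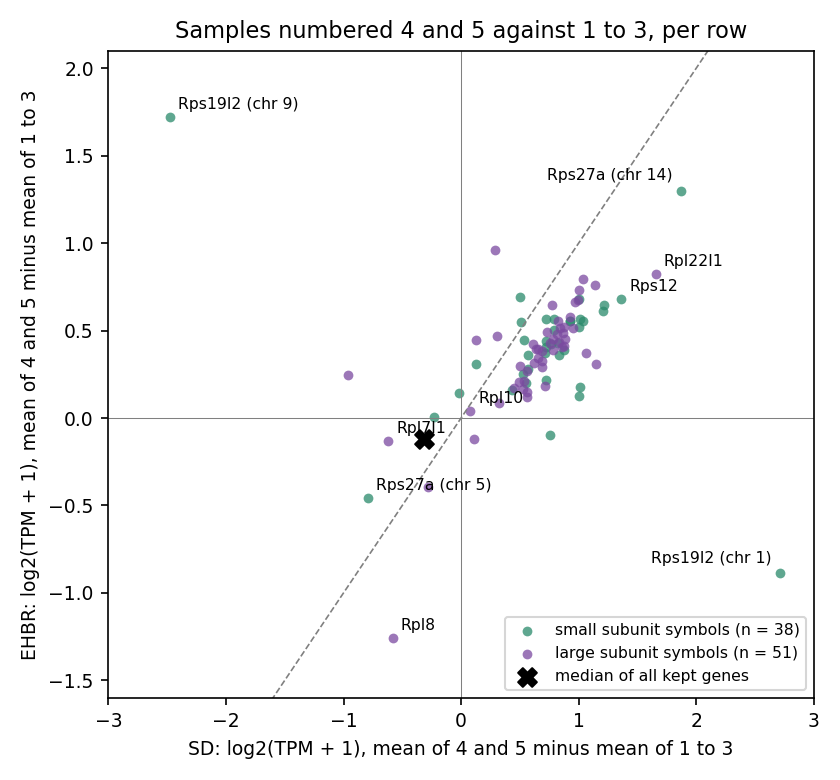
Difference of samples 4 and 5 from samples 1 to 3 in log2(TPM + 1), SD on the horizontal and EHBR on the vertical axis, for the small-subunit (green) and large-subunit (purple) rows, with the median of all kept genes as a black cross and equality as a dashed line. Most rows lie in the upper right under the line, with medians of 0.73 in SD and 0.41 in EHBR, while the copies of Rps19l2 lie at opposite corners.

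Rows that share a protein's name moved against each other in some samples. Rps27a, which encodes a ubiquitin-ribosomal protein fusion, stood on chromosome 14 at 415, 413 and 355 TPM and then 1537 and 1349 TPM in SD, and at 416, 348 and 392 TPM and then 1090 and 825 TPM in EHBR, the largest difference of any row (1.59). Its row without introns on chromosome 5 held 432, 383, 350, 130 and 382 TPM in SD and 382, 373, 369, 222 and 335 TPM in EHBR, lowest in the samples numbered 4. Summed over all 6 rows named for Rps27a, the levels were 848, 796 and 705 TPM and then 1667 and 1732 TPM in SD, and 799, 722 and 761 TPM and then 1311 and 1160 TPM in EHBR. The rows of Rps19l2 on chromosomes 1 and 9 traded places from sample to sample: the first held 14.6 to 429 TPM and the second 17.99 to 414 TPM. Rpl8 held 179 TPM in SD sample 2 and 344 TPM in EHBR sample 3, and 6.52 to 18.0 TPM in the other 8. Its difference of -0.92 was the most negative of the rows and rests on those 2 samples. The copies of Rpl7a on chromosome 3 held 8.79 to 88.2 TPM and 17.8 to 118 TPM. With the TPM of all rows of a protein summed, over the 79 proteins with a sum above the limit, 62 had all 4 samples above all 6, against 3.38% of the 11025 features then tested, and the median difference was 0.61.

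Other lists are set beside the 3.45% of all kept genes that stood above and the 14% that stood below. The 4 ribosomal proteins with other kinds of symbol that are described here (the stalk proteins Rplp0 and Rplp1, Rpsa and the scaffold Rack1) all had samples 4 and 5 above samples 1 to 3, with a median of 0.47; Rplp2 and Fau had no kept row. Rplp0 held 687 to 786 TPM in SD 1 to 3 against 1004 and 1113 TPM, and 723 to 738 TPM in EHBR 1 to 3 against 912 and 808 TPM. Of 16 translation factors and other genes listed for their TOP mRNAs, 1 stood above (6.25%), Eef1g at 0.34, and 2 below, Nap1l1 at -0.51 and Eif4b at -0.92, and the median was -0.04. By the annotated starts, 0 of the 13 with a window had the strict TOP start and 9 the looser run. Eef2, the translocation factor, differed by -0.15 and Pabpc1, the poly(A)-binding protein, by -0.46. Of 36 ribosome biogenesis genes, 0 stood above and 7 below, not far from the share of all kept genes, with a median of -0.39, and Ncl, the nucleolar protein nucleolin, differed by -0.51. Of 15 regulators of ribosomal protein synthesis, 0 stood above and 3 below, likewise near that share, also with a median of -0.39; Larp1 held 20.7 to 29.1 TPM against 11.4 and 11.6 TPM in SD and 31.8 to 37.3 TPM against 22.9 and 21.98 TPM in EHBR. Among mitochondrial ribosomal proteins 14 of 73 stood above (19.2%), among nuclear subunits of the respiratory chain 35 of 69 (50.7%), and among proteasome subunits 4 of 30 (13.3%), with medians of 0.18, 0.36 and 0.15. The respiratory chain list had a median length of 647 bases and a median level of 217 TPM.

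**Figure D4:**
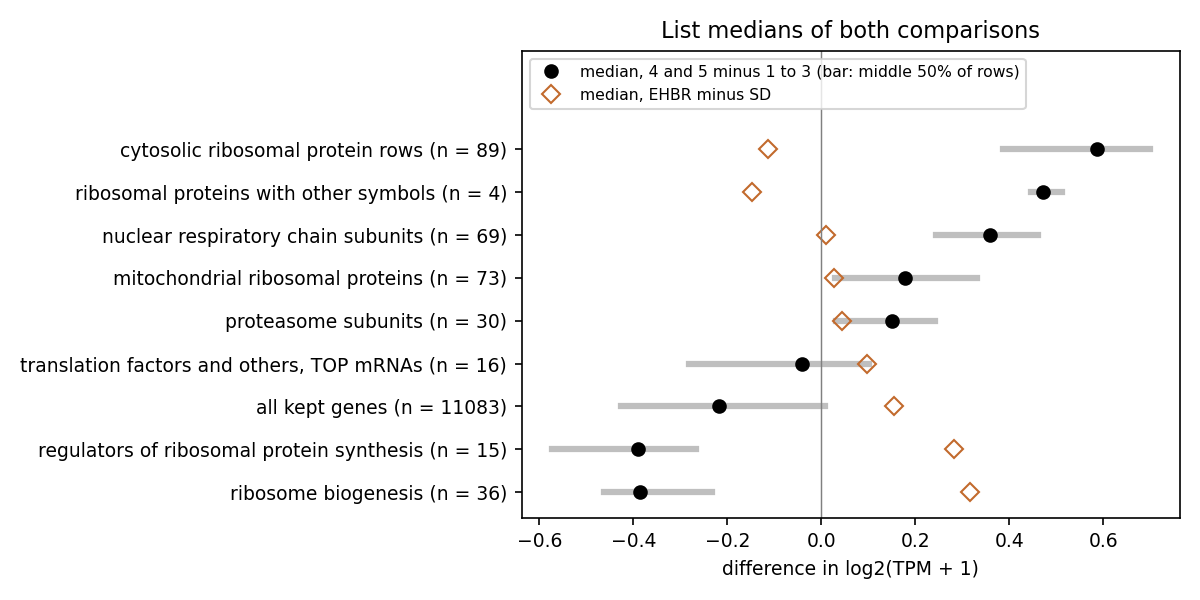
Median difference in log2(TPM + 1) for each gene list, as black points for samples 4 and 5 minus 1 to 3, with bars over the middle 50% of rows, and open diamonds for EHBR minus SD. The ribosomal protein rows have the highest black point at 0.59, and ribosome biogenesis genes and regulators lie at -0.39, below the median of all kept genes at -0.22.

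Several other values are given by the same division. Among them, only the stellate cell and fibroblast sum moved the same way in both strains with separate blocks. Mitochondrial transcripts took 12.99% to 13.4% of TPM in SD 1 to 3 and 17.02% to 17.4% in SD 4 and 5. In EHBR the blocks overlapped, at 14.1% to 15.3% and 15.1% to 16.2%. The summed level of the 12 proliferation markers was 48.1 to 59.5 TPM in SD 1 to 3 and 30.2 to 36.3 TPM in SD 4 and 5, but 58.7 to 67.2 TPM and 67.6 to 68.3 TPM in EHBR. Of the 12, only Pcna had a mean difference above 0. It averaged 29.4 TPM in EHBR 1 to 3 and 37.3 TPM in EHBR 4 and 5. The median marker differed by -1.08 in SD and -0.21 in EHBR, where the median kept gene differed by -0.32 and -0.12. Markers of stellate cells and fibroblasts, 9 of 10 kept, summed to 222 to 251 TPM and 139 to 159 TPM in SD, and to 221 to 241 TPM and 194 to 204 TPM in EHBR. Col3a1 weighs most in this sum, at a mean of 101 TPM where the median kept marker had 6.97 TPM. Its means were 116 and 57.8 TPM in SD and 119 and 96.6 TPM in EHBR. Of the 9 kept markers 4 stood below and 1 above, against 14% and 3.45% of all kept genes. The 10 hepatocyte markers summed to 140838 to 185458 TPM in every sample, and their highest SD 4 and 5 value lay below the lowest SD 1 to 3 value. In EHBR these sums overlapped, at 174346 to 185458 TPM in samples 1 to 3 and 161817 to 177031 TPM in samples 4 and 5. The most abundant of these markers averaged 100228 TPM. Kupffer cell and endothelial marker sums overlapped between the blocks in both strains. Erythroid markers, with 10 of 12 symbols found and 6 kept, were summed over those found. They held 983 to 1551 TPM and 1548 to 2048 TPM in SD but 2988 to 3315 TPM and 1327 to 1640 TPM in EHBR. The part of these in the ribosomal protein result was not tested. In whole-tissue RNA, fewer cells of a type and less RNA per cell cannot be told apart. Totals of assigned reads were 13794181 to 19601572 per sample, of which the 94 rows held 164099 to 433250, by the reads behind upper-quartile FPKM.

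Few of these mRNAs passed the test between EHBR and SD livers. The rows took 3.21% ± 0.99 of TPM in SD and 2.81% ± 0.48 in EHBR (SD, n = 5 per strain), and an exact two-sided permutation test gave p = 0.429, where 0.00794 is the smallest that 5 against 5 can give. In the limma test over all kept genes, with an adjusted p under 0.05 as the threshold, 2 of the 89 rows were called, where 5.45% of all kept genes were. Of these, 1 was higher in EHBR (Rpl17), where 3.82% of kept genes were, and 1 was lower (Rpl12), where 1.63% were. The strains did not overlap in these 2 rows, where 8.47% of all kept genes had no overlap. An unadjusted p under 0.05 was reached by 5 of the 89 rows, against 20.9% of all kept genes. The median row differed by -0.11 and the median kept gene by 0.15. The median row was 0.0055 without SD sample 5 and -0.21 without SD sample 3, and the difference in share was -0.07 percentage points without SD sample 5. The median kept gene followed the scaling, moving to 0.01 with upper-quartile FPKM or quantile normalization, and the share of called genes that were higher in EHBR moved with it. That share was 70.0% of 604 genes for TPM and 58.8% of 522 for FPKM. It was 45.5% of 481 for the upper-quartile form, 51.99% of 604 for quantile-normalized values, 42.05% of 459 once sample medians were centred and 45.9% of 540 with a length trend removed. For the ribosomal protein rows, FPKM also gave 1 higher and 1 lower, against 2.77% and 1.94% of all kept genes, and centred medians gave 0 higher and 1 lower, against 1.74% and 2.4%.

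Rpl12, part of the base of the ribosomal stalk, was lower in every EHBR sample than in any SD sample. The row on chromosome 3 (12009578 to 12011666, plus strand, build rn6) held 502, 486, 486, 769 and 626 TPM in SD and 282, 228, 255, 340 and 287 TPM in EHBR. The difference was -1.03 (SE 0.15, adjusted p = 0.00225, limma), and -0.95 and -1.15 within samples 1 to 3 and within samples 4 and 5. A row on chromosome X (1345684 to 1346181), LOC102555453, which RefSeq also names Rpl12 through its Entrez ID, went the other way. It held 36.2, 39.0, 33.2, 57.2 and 160 TPM in SD and 229, 184, 174, 217 and 225 TPM in EHBR, a difference of 1.92 (SE 0.36, adjusted p = 0.00867, limma). Summed over the 4 rows named for Rpl12, levels were 640 ± 154 TPM in SD and 485 ± 61.6 TPM in EHBR (SD, n = 5 per strain). The strains overlapped over all 10 samples, but in each block every EHBR sum lay below every SD sum. In samples 1 to 3 the sum was 520 to 539 TPM in SD and 413 to 512 TPM in EHBR. In samples 4 and 5 it was 827 and 788 TPM in SD and 559 and 513 TPM in EHBR. The sum differed by -0.38 and did not pass the test (adjusted p = 0.2, limma).

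Rpl17, at the rim of the exit tunnel of the large subunit, was higher in EHBR, and a second row named for it again went the other way. The row on chromosome 18 (70970596 to 70975494, plus strand, build rn6) held 192, 199, 201, 260 and 279 TPM in SD and 363, 341, 375, 470 and 349 TPM in EHBR, with no overlap, and differed by 0.75 (SE 0.13, adjusted p = 0.00672, limma). It did not pass with upper-quartile FPKM (0.69, adjusted p = 0.0972), with sample medians centred (0.58, adjusted p = 0.172) or in samples 4 and 5 alone (0.59, adjusted p = 0.0848), all by limma. RGD1359290 on chromosome 10 (95642640 to 95657977), a copy named Rpl17-ps16 in RefSeq, held 162, 179, 174, 228 and 228 TPM in SD and 14.8, 14.4, 12.03, 21.1 and 26.5 TPM in EHBR. Its difference was -3.42 (SE 0.20, limma adjusted p = 2.4e-06). The 3 rows together held 421 ± 71.0 TPM in SD and 399 ± 53.4 TPM in EHBR, with overlapping strains and an adjusted p of 0.764 from limma. With the rows of each protein summed, 0 of 79 proteins passed the strain test, where 5.46% of the 11025 features did, and 3 had an unadjusted p under 0.05, against 21% of the features. The reads behind TPM and behind upper-quartile FPKM differed by strain in these 2 single rows. For Rpl12 they were 1275 to 2264 and 1498 to 2599 in EHBR, but 2821 to 6235 and 2863 to 6314 in SD. For Rpl17 they were 1316 to 2616 and 1205 to 2411 in SD, and 2063 to 3533 and 2009 to 3448 in EHBR. Whether strain sequence differences changed how reads were assigned among near-identical rows was not tested.

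**Figure D5:**
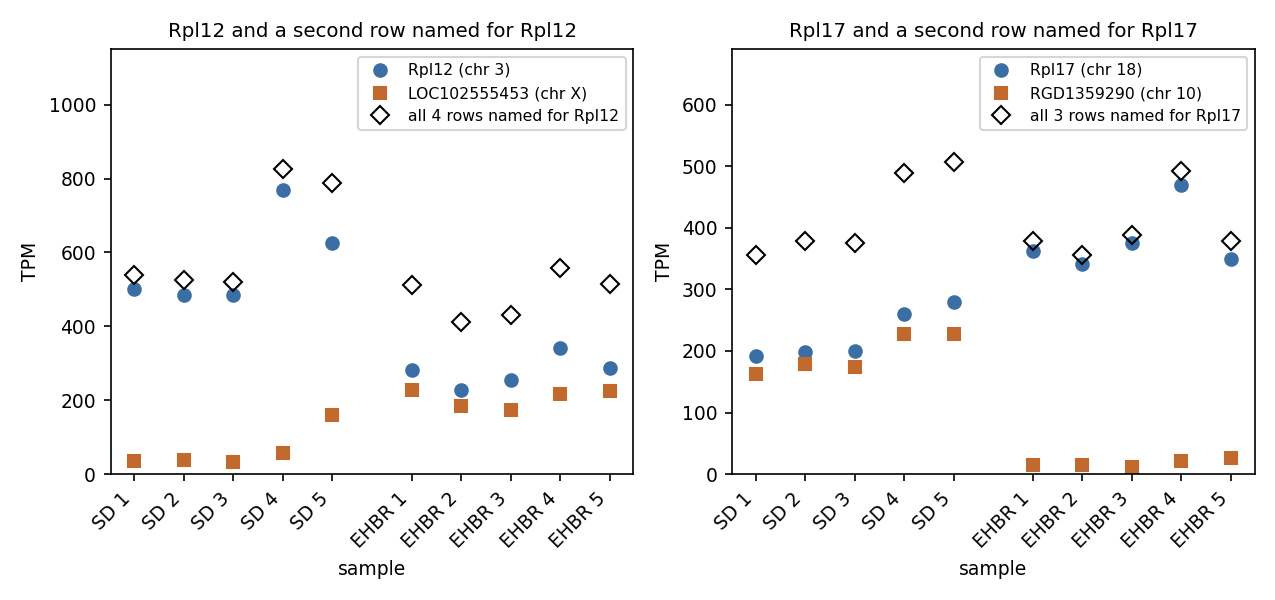
TPM of Rpl12 and Rpl17 (circles), of a second row named for the same protein (squares) and of all rows so named (open diamonds) in each of the 10 samples. The single rows separate the strains in opposite directions, while the sums of SD and EHBR overlap over all 10 samples, at 640 ± 154 against 485 ± 61.6 TPM for Rpl12 and 421 ± 71.0 against 399 ± 53.4 TPM for Rpl17. Within samples 1 to 3 and within samples 4 and 5, every EHBR sum of Rpl12 lies below every SD sum.

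Other rows with large strain differences did not pass the test. Rps4y2 had 4.67 to 21.5 TPM in SD and 12.4 to 31.8 TPM in EHBR, a difference of 0.92 (adjusted p = 0.151, limma). Rpl38, as a row without introns on chromosome 8, had 9.47 to 19.01 TPM in SD and 0.98 to 12.5 TPM in EHBR. A copy of Rpl7a on chromosome 3 had 18.0 to 118 TPM in SD and 17.8 to 32.2 TPM in EHBR, with a difference of -1.04 (adjusted p = 0.155, limma), and passed when SD sample 3 was left out (-1.40, adjusted p = 0.0149, limma). Rpl41, the most abundant, had a mean of 2337 ± 817 TPM in SD and 1756 ± 278 TPM in EHBR (SD, n = 5 per strain; adjusted p = 0.357, limma). Among the other lists, the nucleolar protein Dkc1 was lower in EHBR (-1.09, SE 0.09, adjusted p = 4.7e-05, limma) at 36.9 to 41.9 TPM in SD and 16.8 to 19.8 TPM in EHBR, and Npm1, a nucleolar chaperone, was higher by 0.32 (SE 0.08, adjusted p = 0.0424, limma). They were the only genes called among the 36 biogenesis genes, the 16 genes listed for TOP mRNAs and the 15 regulators. Over all kept genes 5.45% were called.

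The strain difference was also taken within each block. Because the blocks were first seen in these data, the calls and p-values in this paragraph are given as descriptions only. Within samples 1 to 3 the median strain difference was 0.01 over the 89 rows and 0.07 over all kept genes. The strains overlapped in 72 rows and did not in 17, where 29.1% of all kept genes did not. Within samples 4 and 5 the median strain difference was -0.31 over the rows and 0.27 over all kept genes. Both EHBR samples lay below both SD samples in 63 rows, where 11.7% of all kept genes did so. Tested within samples 1 to 3 alone, Rpl17 was called higher and Rpl12 lower, against 4.35% and 2.17% of all kept genes. Tested within samples 4 and 5 alone, 0 rows were called higher and 3 lower (Rpl12, Rps27 and Rpl41), against 4.15% and 1.01%. For 77 of the 89 rows the difference between blocks was larger (more positive) in SD than in EHBR, as it was for 3408 of all 11083 kept genes. The test of that difference, the interaction of strain and block, called 0 of the 89 rows, with 0.271% of all kept genes called; limma's unadjusted p was under 0.05 in 39 rows (43.8%), against 20.3% of all kept genes. The lowest adjusted p of the rows was 0.0885, for Rps27. With a term for the block in the strain test, Rpl41 (-0.36) and Rps23 (-0.27) also passed as lower in EHBR, making 1 row higher and 3 lower, against 13.6% and 3.36% of all kept genes. With the sample number as a block, 1 row was higher and 1 lower, against 5.77% and 2% of all kept genes.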

How the data were processed

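Poly(A) RNA from liver was made into directional libraries, per the labels' protocols. Per the submitters' processing notes, the build was rn6 and the tools were featureCounts 1.6.3 and HISAT2 2.1.0, after Trimmomatic 0.38 and FastQC 0.11.7. How strand and multiply mapped reads were treated in counting was not stated, so overlapping genes and near-identical copies are uncertain. The authors deposited TPM, which sum to the same total in each sample. The authors also deposited FPKM and upper-quartile FPKM. Whole reads, to within 0.0002, and transcript lengths were recovered from upper-quartile FPKM and TPM together for all 11083 kept genes. TPM and FPKM did not rest on the same reads: 4 of 89 rows and 720 of 11083 genes differed by over 0.3 (log2), for a reason that was not stated. TPM were used unless another unit is named.

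Genes at 1 TPM or more in 5 samples or more were tested with limma 3.58.1 (R 4.3.3, eBayes with trend) on log2(TPM + 1), two-sided, with strain as the factor and Benjamini-Hochberg adjustment over all 11083 genes. The step was tested on simulated data that held no difference between the blocks of samples. How it performs with such a difference was not tested. The members and lists were chosen with earlier results of these data known. Rows were named by a rule: panels of roles and paralogs, the extremes of each comparison and of abundance, called rows and rows below the limit, with 33 kept rows in all. Rps23, copies outside the name pattern, and Eef1g, Nap1l1, Eif4b, Ncl, Pabpc1, Eef2 and Larp1 were named after their values were seen. Rows of one protein were joined by symbol or by the RefSeq symbol of the Entrez ID, an alternative added after seeing the data. Alternatives were other units, pseudocounts, filters and scalings, a length trend, voom on recovered reads, terms for the numbers, and leaving out each sample. Sequences are from RefSeq (GRCr8); where a gene had several starts the first listed was used, and 7 symbols had their window on another chromosome than the row. Identities between paralogous proteins were not analysed here. One gene of the list with other symbols is not reported here. Tables, exact tests and figures were made in Python 3.11.15 (numpy 2.4.6; pandas 2.3.3; matplotlib 3.10.9; scipy 1.17.1).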

Additional observations from a re-analysis of the deposited data

Results flagged for a closer look

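Among 68 groups of 5 samples (the share of TPM and the named rows, in each strain), 3 had 1 sample far from the others relative to the range, where chance gives about 1 in 20. The Rps27a row on chromosome 5 held 130 TPM in SD sample 4, against 350 to 432 TPM in the other 4, and 222 TPM in EHBR sample 4, against 335 to 382 TPM. Rpl8 held 344 TPM in EHBR sample 3, against 9.46 to 14.6 TPM in the other 4.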

How the results depend on the processing

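The strain test called 2 rows, Rpl12 and Rpl17, and the count depended on some settings. It was 1 with upper-quartile FPKM and with sample medians centred, where Rpl17 was lost. Of all 11083 kept genes 481 and 459 were then called, against 604 in the main test. It was 4 with a term for the block of samples, where 1878 of all kept genes were called. With rows of one protein summed, an alternative chosen after seeing the data, it was 0 of 79, against 5.46% of all features. In samples 4 and 5 alone it was 3 (Rpl12, Rps27 and Rpl41), where 572 of all kept genes were called. Leaving out each sample in turn gave 2 to 3, where 381 to 608 of all kept genes were called. The replicate block, with the sample number as a block, called 2. Same-numbered samples correlated at 0.134, 0.287, 0.0742, 0.254 and 0.27 across genes, which are not replicates. Unlike numbers within 1 to 3 or within 4 and 5 reached 0.31 (SD 3 with EHBR 2) and 0.396 (SD 5 with EHBR 4). Pairs across that division lay between -0.367 and -0.0924. The numbers were therefore not taken to pair the animals. Over all genes the replicate block raised the calls from 604 to 861. A term for the block of samples raised them to 1878, and leaving out EHBR sample 2 lowered them to 381. The median difference of samples 4 and 5 from 1 to 3 was 0.81 with upper-quartile FPKM and 0.87 with sample medians centred, against 0.59. Under the other settings it lay between 0.52 and 0.68, and at 0.54 to 0.61 with each sample left out. The strain median ranged from -0.21 to 0.01 over the samples left out, and the difference in share from -0.61 to -0.07 percentage points. The p of that difference ranged from 0.206 to 0.857 (exact two-sided permutation test). Rpl12 and Rpl17 kept their direction under every alternative run on single rows. Strain differences of 18 other named rows, none of them called in the test, changed sign in places. With FPKM the value was -0.025 for Rps12, -0.0058 for Rps27a (chromosome 5), 0.12 for Rpl35al1 and -0.096 for Rps27l. With a length trend removed the value was -0.016 for Rpl3 and 0.0405 for Rpl36al. In samples 1 to 3 alone the value was 0.00798 for Rpl23, 0.30 for Rpl22l1, 0.0103 for Rps3, 0.073 for Rpl5, 0.082 for Rpl36al, -0.35 for Rpl10l, -0.047 for Rps27a (chromosome 5), -0.071 for Rps27l and 0.13 for Rps21. In samples 4 and 5 alone the value was -0.34 for Rps12, -1.72 for Rps19l2 (chromosome 1), 1.4996 for Rps19l2 (chromosome 9), -0.16 for Rpl8 and 0.065 for Rpl35al1. After quantile normalization the value was -0.048 for Rpl10l and -0.045 for Rps27l. With sample medians centred the value was -0.11 for Rps12, -0.038 for Rpl10l, -0.082 for Rps27a (chromosome 5) and -0.17 for Rps27l. With upper-quartile FPKM the value was -0.094 for Rps12, -0.075 for Rps27a (chromosome 5), 0.12 for Rpl35al1 and -0.17 for Rps27l. With voom on recovered reads the value was -0.025 for Rps12, -0.0048 for Rps27a (chromosome 5), 0.73 for Rpl35al1 and -0.098 for Rps27l. With each sample left out, ranges that crossed 0 were -0.51 to 0.043 for Rps27a (chromosome 14), -0.32 to 0.035 for Rpl36a, -0.27 to 0.24 for Rpl22l1, -0.14 to 0.32 for Rps12, -0.12 to 0.046 for Rpl5, -0.22 to 0.14 for Rpl36al, -0.13 to 0.39 for Rpl10l, -0.23 to 0.23 for Rps27a (chromosome 5), -0.13 to 1.07 for Rps19l2 (chromosome 1), -0.71 to 1.03 for Rpl8, -0.27 to 0.036 for Rps6, -0.073 to 0.046 for Rps27l and -0.31 to 0.13 for Rps21. The cause of these changes was not tested. Depth limits the scarce rows: that of Rps6 rests on 9 to 43 reads per sample behind its TPM and 3 to 18 behind its upper-quartile FPKM.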
